A study of Homo sapiens with 6 samples.

Results

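The transcription factor p53 and its target genes were read here as 31 genes. The members were every probe set that the array's annotation gave to a single one of these genes, 77 of 54613 probe sets that are not controls. Probe sets were present for 29 of the 31 genes, among 19775 genes named on the array, and BTG2 and FDXR, the other two, were not analysed here. The p53 gene itself was not analysed here either.

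The arrays were 1-colour Affymetrix human expression arrays of total RNA, 6 in all. A first group of 3 samples carried the label 231wCFry, a single stable clone of MDA-MB-231 cells that had been transfected with a cDNA of the wild-type Fry allele of the Copenhagen (Cop) rat and selected with puromycin. The second group held 3 samples of MDA-MB-231 cells that were not transfected, called parental below. MDA-MB-231, an established human line from an invasive breast tumour, is known to carry a mutant form of p53, and the labels describe both groups as monolayer cultures in the same medium. Fry is a scaffold protein of the NDR kinases. The labels describe no clone with an empty vector, and the design text mentions differences in passage within each line but gives no passage number. Where the human FRY probes lie relative to the rat cDNA was not determined, so the transgene was not checked here. Separate cultures are not named, so the p-values below measure only the spread between these samples, which may be technical.

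In normal cells p53 is kept scarce by MDM2 and its relative MDM4. After DNA damage or other stress p53 accumulates, binds response elements made of paired half-sites and raises genes that stop the cell cycle, repair DNA, alter metabolism, signal to other cells or kill the cell. MDM2 is itself a p53 target, which closes a negative feedback loop.

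The response element was searched for in RefSeq windows of GRCh38.p14 that run from 250 bases before to 50 bases after each annotated start site. The pattern was the p53 consensus of 20 bases, a pair of half-sites of 10 bases with no spacer, each with the core CNNG. The C and the G of both cores were required and at most 3 other mismatches were allowed, and since the pattern is its own reverse complement, both strands were covered at once. Of 27305 genes with a window, 373 (1.37%) held a match, as did 1.12% of the 35116 windows. Windows were present for 26 members, of which 7 (26.9%) held a match. The members were chosen as p53 targets, so a share above that of all genes is no finding about them. The members with a match were GDF15, AEN, MDM2, SESN1, DDB2, FAS and FDXR. PHLDA3, GADD45A, TP53INP1, RRM2B and TNFRSF10B had no window and were not searched. A match is a run of letters and was not tested for binding. The 6 matches in members with array values are shown 5′ to 3′ on the strand of the gene, with both 4-base cores in capitals, because these members are those in which the letters of the element lie near an annotated start.
GDF15: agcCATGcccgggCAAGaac
AEN: gggCTTGcccgggCATGtgg
MDM2: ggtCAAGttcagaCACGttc
SESN1: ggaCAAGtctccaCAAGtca
DDB2: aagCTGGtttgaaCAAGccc
FAS: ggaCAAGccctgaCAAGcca
The GDF15 match lay at chr19:18386186-18386205 on the plus strand, 28 bases after the annotated start, and the AEN match at chr15:88621306-88621325 on the plus strand. The MDM2 match lay at chr12:68808923-68808942 on the plus strand, in the overlapping windows of 2 of the annotated MDM2 start sites, of which the first is shown. The SESN1 match was at chr6:109009018-109009037 on the minus strand, the DDB2 match at chr11:47214969-47214988 on the plus strand and the FAS match at chr10:88991309-88991328 on the plus strand. The whole windows of GDF15, AEN and MDM2 are given for context, with the match in capitals, since these genes rose in 231wCFry samples (GDF15 and AEN) or fell in them (MDM2).
GDF15: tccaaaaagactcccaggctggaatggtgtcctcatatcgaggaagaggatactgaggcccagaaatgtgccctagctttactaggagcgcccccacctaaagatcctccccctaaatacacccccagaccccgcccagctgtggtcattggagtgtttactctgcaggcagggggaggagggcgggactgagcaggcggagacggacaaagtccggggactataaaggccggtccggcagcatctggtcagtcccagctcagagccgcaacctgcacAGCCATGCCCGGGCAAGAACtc
AEN: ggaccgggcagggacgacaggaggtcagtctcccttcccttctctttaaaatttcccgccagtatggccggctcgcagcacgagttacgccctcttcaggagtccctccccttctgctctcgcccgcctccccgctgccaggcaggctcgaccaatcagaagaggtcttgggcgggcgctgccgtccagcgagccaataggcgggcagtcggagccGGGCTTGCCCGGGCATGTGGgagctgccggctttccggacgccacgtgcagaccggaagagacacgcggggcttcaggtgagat
MDM2: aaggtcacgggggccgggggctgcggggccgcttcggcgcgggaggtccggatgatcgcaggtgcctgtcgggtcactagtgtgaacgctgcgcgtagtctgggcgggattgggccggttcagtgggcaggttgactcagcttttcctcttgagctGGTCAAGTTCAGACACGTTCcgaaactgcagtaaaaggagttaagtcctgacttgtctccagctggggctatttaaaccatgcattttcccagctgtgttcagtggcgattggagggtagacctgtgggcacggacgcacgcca
These windows span chr19:18385908-18386207, chr15:88621090-88621389 and chr12:68808767-68809066, all on the plus strand.

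Values are MAS5 signals in arbitrary units, which the authors had scaled to a common trimmed mean on every array. Changes are differences of log2(signal + 16), 231wCFry minus parental, from a limma fit over all probe sets, with Benjamini-Hochberg adjusted p under 0.05 as the threshold. On this scale the change of dim genes is understated. Each gene is read by the probe set of highest mean log2 value, called its leading probe set. The median signal of all probe sets was 10.4 to 12.1 over the arrays, and the highest unspiked bacterial control on an array read 2.5 to 4.9. With 3 arrays a group, the number of arrays limits the precision. In bulk RNA, fewer cells of a type and less RNA per cell cannot be told apart.

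The groups differed widely beyond p53 targets. Over the 13606 genes tested, 66.9% passed the threshold, 33.9% higher and 32.9% lower. Markers of cell identity moved with the groups. Of 6 epithelial markers, all tested, 5 fell and none rose, with a summed signal of 1519 to 1627 in 231wCFry samples and 7274 to 7867 in parental samples. Most of the 231wCFry sum came from KRT18, at 1507 ± 56.5, against 2992 ± 191 in parental samples. The keratin KRT19 was not above background in any 231wCFry sample, and EPCAM and SPINT2 were not above it in 1 of 3. CDH1 was dim in both groups, at 6.73 ± 1.66 in 231wCFry samples and 9.73 ± 3.29 in parental samples (SD, n = 3 each). Of 10 melanocyte and neural crest markers, 8 had a probe set, 7 were tested and 6 rose, with a summed signal of 5016 to 5476 in 231wCFry samples and 386 to 471 in parental samples. Most of the parental sum came from MITF, at 399 ± 39.8, against 1129 ± 65.3 in 231wCFry samples. SOX10 and S100B were not above background in parental samples. MLANA and TYR were dim even in 231wCFry samples, at 35.5 ± 25.2 and 25.5 ± 8.61, and TYRP1 was not tested. PMEL did not pass, at 5.17 ± 2.67 in 231wCFry samples and 10.8 ± 5.63 in parental samples. Of 5 fibroblast markers 3 were tested, 1 of them higher and 2 lower, with a sum of 793 to 896 in 231wCFry samples and 235 to 295 in parental samples. The higher sum came from COL1A2 (831 ± 48.4 in 231wCFry samples and 39.4 ± 3.46 in parental samples), while PDGFRB and LUM fell. Of 3 blood markers only CD14 was tested and fell. The blood sum was 2.7 to 4.7 in 231wCFry samples and 17.8 to 22.4 in parental samples. Many of these markers passed the filter on low signals through a single group and so had to differ. They were SOX10, S100B, MLANA and TYR, through the 231wCFry samples, and KRT19, EPCAM, SPINT2, PDGFRB and CD14, through the parental samples. The counts of rising and falling markers therefore rest in part on that filter. The GAPDH controls, a check of RNA quality, gave 3′-to-5′ ratios of 1.24 to 1.33 on the 231wCFry arrays and 1.36 to 1.39 on the parental arrays. Apart from KRT18, CDH1, PMEL and MITF, the epithelial and neural crest marker values of the 231wCFry samples go against those of an epithelial line. Their label is therefore in doubt, and in every comparison below the introduced Fry and the difference in cell identity cannot be told apart. Whether the 231wCFry samples carry the mutant p53 of MDA-MB-231 was not determined here.

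p53 target genes did not move one way. Of the 29 genes with a probe set, 27 passed the filter on low signals and were tested. Of these, 7 rose, 12 fell and 8 did not pass. The 7 that rose were 25.9% of those tested, against 33.9% over all genes, and the 12 that fell were 44.4%, against 32.9% over all genes. The median change of the 27 genes was -0.18 on the log2 scale, against 0.01 over all tested genes, and the median size of a change was 0.50, against 0.47. The groups did not overlap in 22 of the 27 genes, against 73.0% of all genes. Changes of at least 1 on the log2 scale were called in 6 genes that rose (GDF15, TP53I11, ZMAT3, CYFIP2, TIGAR and AEN) and in 4 that fell (PHLDA3, TP53INP1, PLK2 and TRIAP1), and over all genes 12.2% rose and 10.7% fell by that much. Leaving out probe sets of types that may match several transcripts lowered the count of risen members to 4, because AEN, CCNG1 and CYFIP2 have no other type of tested probe set.

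**Figure D1:**
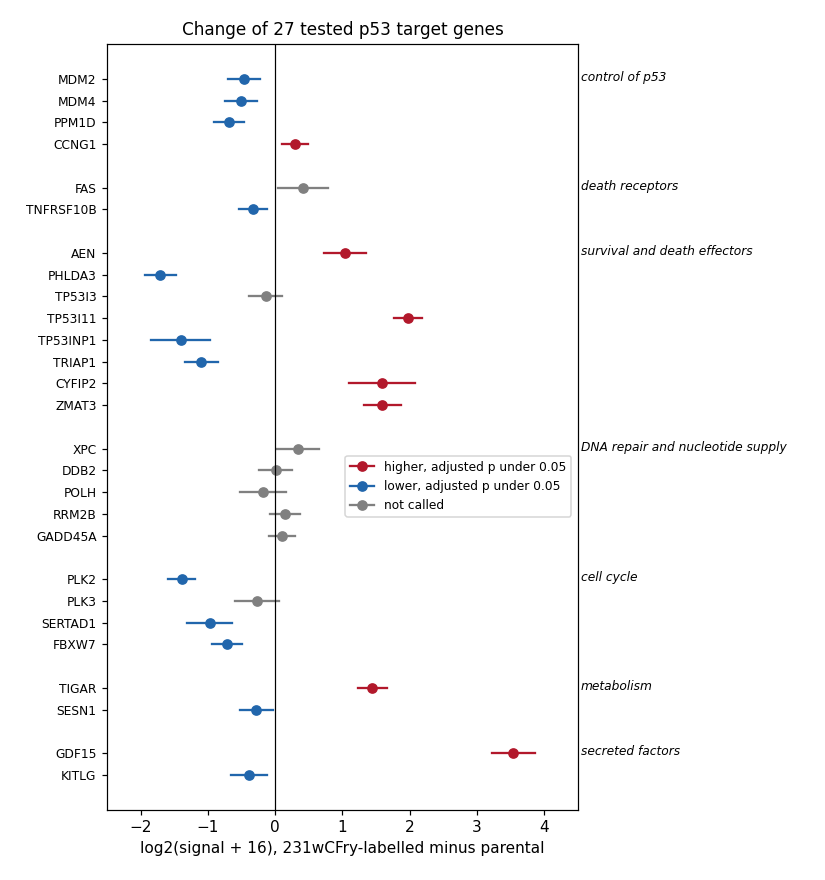
Change of each tested member gene on log2(signal + 16), 231wCFry minus parental, with its 95% confidence interval from limma, 3 arrays a group, ordered by role. Points to the right of 0 are higher in 231wCFry samples. GDF15 stands at 3.54 and PHLDA3 at -1.71. None of the 5 DNA repair and nucleotide supply genes was called, and they lie between -0.18 (POLH) and 0.33 (XPC).

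Among genes that control p53, 3 fell and 1 rose. MDM2, the ubiquitin ligase that marks p53 for degradation, read 1153, 1025 and 1154 in 231wCFry samples, against 1380.0, 1538 and 1690.0 in parental samples. Every 231wCFry array lay below every parental array, and MDM2 fell with a log2 change of -0.46 (SE 0.11, limma adjusted p = 0.00397). The 5 remaining tested probe sets for MDM2 gave 4 falls and 1 without a call, so no tested MDM2 probe set rose. The dimmest of those falls, at 4.17 ± 1.99 in 231wCFry samples and 11.4 ± 2.87 in parental samples, adds no support. That probe set passed the filter on low signals through the parental samples alone, so its inclusion depended on the difference. The fall of MDM2 stands beside its promoter match shown above, while GDF15 and AEN, which also hold a match, rose.

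MDM4, which binds p53 and blocks its activity, read 286, 312 and 244 in 231wCFry samples, against 396, 393 and 420.1 in parental samples. The groups did not overlap, and MDM4 fell with a log2 change of -0.50 (SE 0.11, limma adjusted p = 0.00239). Among the rest of its tested probe sets, 2 fell and 1 did not pass. PPM1D, a phosphatase that dampens the damage signal to p53, fell to 93.2 ± 6.41 in 231wCFry samples, against 160.8 ± 14.5 in parental samples (SD, n = 3), a log2 change of -0.69 (limma adjusted p = 2.16e-04), and its other probe set fell as well. CCNG1, which encodes cyclin G1, a cyclin that recruits a phosphatase to MDM2, was the exception. It rose to 1760.1 ± 40.5 in 231wCFry samples, against 1429 ± 66.5 in parental samples, a small log2 change of 0.30 (limma adjusted p = 0.0136). Without the first 231wCFry array that call was lost (adjusted p = 0.051).

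The death receptors changed little where they were measured. FAS, a receptor that triggers apoptosis when its ligand binds, read 113, 102 and 98.7 in 231wCFry samples, against 80.2, 96.1 and 52.6 in parental samples. These groups do not overlap, yet the log2 change of 0.41 (95% interval 0.04 to 0.79) did not pass the limma test (adjusted p = 0.0511). It passed without the second parental array, the highest of its group (adjusted p = 0.0116), and also with a pseudocount of 64 (0.0435), a 60th percentile filter (0.0446), a replicate block (0.0270) and an intensity trend (0.0372). Of the 3 other tested FAS probe sets 1 rose and 2 did not pass. TNFRSF10B, the TRAIL receptor DR5, fell to 1876 ± 105 in 231wCFry samples, against 2367 ± 122 in parental samples (SD, n = 3), a log2 change of -0.33 (limma adjusted p = 0.0105). Its 2 other tested probe sets did not pass and pointed up, at 0.13 and 0.37, so the fall rests on 1 probe set. EDA2R, a receptor of ectodysplasin A2, was not above background in any of the 6 arrays and was not tested.

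Effectors of survival and death moved in both directions, with 4 genes higher, 3 lower and 1 not passing among 8 tested. ZMAT3, a zinc finger protein that binds RNA, read 876, 1022 and 856 in 231wCFry samples, against 273, 267 and 343 in parental samples. The lowest 231wCFry array was well above the highest parental array, and the group means differed by a factor of 3.12 (log2 change 1.59, SE 0.12, limma adjusted p = 3.03e-06). All 5 tested ZMAT3 probe sets rose, by 0.45 to 1.96 on the log2 scale.

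TP53I11, a gene described as induced during p53-driven death, read 119, 123 and 132 in 231wCFry samples, against 22.2, 18.2 and 18.6 in parental samples. Arrays within each group were close, and TP53I11 rose with a log2 change of 1.98 (SE 0.09, limma adjusted p = 1.08e-07). Its other tested probe set rose by 1.99. CYFIP2, a subunit of the WAVE complex that controls actin, read 56.5, 76.9 and 58.6 in 231wCFry samples, against 22.1, 3.5 and 8.9 in parental samples. It was dim and scattered in the parental samples, where the second array was not above background, and it rose with a log2 change of 1.59 (SE 0.22, limma adjusted p = 1.64e-04). AEN, a nuclease that takes part in apoptosis, read 266, 287 and 308 in 231wCFry samples, against 150.4, 103 and 146 in parental samples. Its groups were apart on its only probe set, and AEN rose with a log2 change of 1.04 (SE 0.14, limma adjusted p = 1.32e-04).

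PHLDA3, an inhibitor of the survival kinase AKT, was above background in parental samples only. It read 0.6, 1.0 and 1.0 in 231wCFry samples, all not above background, against 46.9, 34.7 and 36.8 in parental samples. Set against the bacterial control level of each array, PHLDA3 was at least 11.1-fold lower in 231wCFry samples (limma adjusted p = 6.49e-07), and its other probe set was at least 5.68-fold lower. Since PHLDA3 passed the filter through the parental samples alone, its inclusion among the tested genes itself depended on that difference.

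TP53INP1, a regulator of p53 phosphorylation and of autophagy, read 188, 161 and 119 in 231wCFry samples, against 484, 515 and 327 in parental samples. It was among the more scattered members, with the third array lowest in both groups, and it fell with a log2 change of -1.41 (SE 0.19, limma adjusted p = 1.70e-04). TRIAP1, a small mitochondrial protein that restrains apoptosis, read 776, 867 and 672 in 231wCFry samples, against 1728, 1661 and 1613 in parental samples. The 231wCFry mean was 0.46 times the parental mean (log2 change -1.10, SE 0.11, limma adjusted p = 1.85e-05). TP53I3, a quinone oxidoreductase linked to oxidative stress, overlapped between groups, at 363 ± 13.2 in 231wCFry samples and 404 ± 50.3 in parental samples (95% interval of the log2 difference -0.38 to 0.10, limma adjusted p = 0.272). SPATA18, which takes part in the quality control of mitochondria, had both probe sets removed by the filter.

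**Figure D2:**
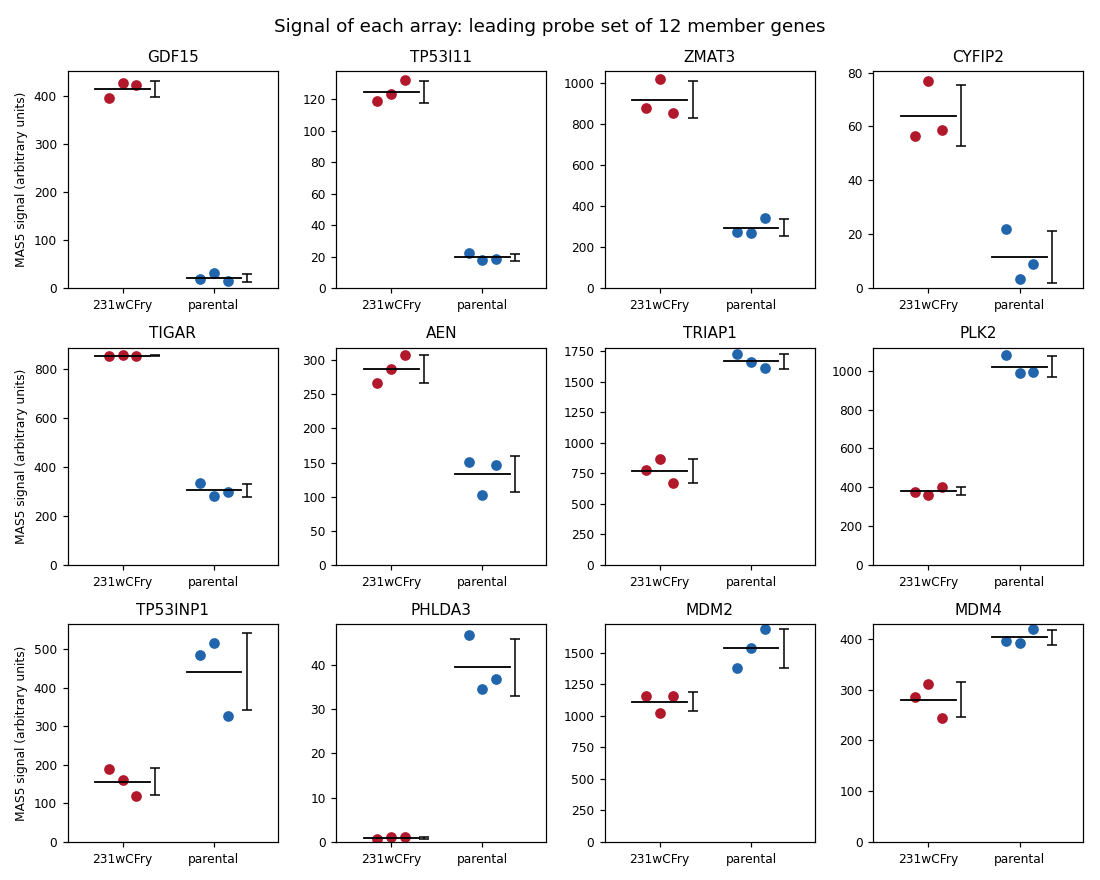
MAS5 signal (linear axis from 0, a scale of its own in each panel) of the leading probe set on each array for the 10 members called with a log2 change of at least 1 and for MDM2 and MDM4. Points are arrays, the line is the mean and the bar its SD, with 3 arrays a group. In all 12 panels the 231wCFry arrays and the parental arrays do not overlap.

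None of the 5 tested genes of DNA repair and nucleotide supply passed on its leading probe set. DDB2, which recognises ultraviolet damage and holds the closest match to the response element, read 463, 479 and 544 in 231wCFry samples, against 495, 442 and 540.3 in parental samples. The groups overlapped, and the 95% interval of the log2 difference ran from -0.23 to 0.25. GADD45A, a stress protein that binds PCNA, averaged 1234 ± 10.7 in 231wCFry samples and 1148 ± 50.7 in parental samples (SD, n = 3), with an interval of -0.09 to 0.30. RRM2B, the p53-induced subunit of ribonucleotide reductase, averaged 207 ± 21.9 in 231wCFry samples and 186 ± 7.46 in parental samples, with an interval of -0.08 to 0.37. XPC, a sensor of bulky DNA lesions, averaged 73.4 ± 11.3 in 231wCFry samples and 55.2 ± 11.5 in parental samples. Its log2 change of 0.33 (95% interval 0.02 to 0.65) did not pass (limma adjusted p = 0.0610). It did pass without the second parental array (0.0217) and with a replicate block (0.0160).

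POLH, the polymerase that copies past ultraviolet damage, was the single member whose probe sets were called in both directions. Its leading probe set read 198, 272 and 294 in 231wCFry samples, against 325, 252 and 291 in parental samples, with overlapping groups and no call (limma adjusted p = 0.316). A second probe set, with means of 91.1 ± 18.1 in 231wCFry samples and 199 ± 4.12 in parental samples, fell by 1.02 on the log2 scale. Others fell by 0.97 and by 0.33. The remaining tested probe set rose by 0.39 (limma adjusted p = 0.0130), with arrays at 79.7, 87.6 and 87.2 in 231wCFry samples, against 73.4, 53.3 and 56.7 in parental samples. The direction for POLH thus differed with the probe set that was read, and where the probes lie in its transcripts was not determined.

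**Figure D3:**
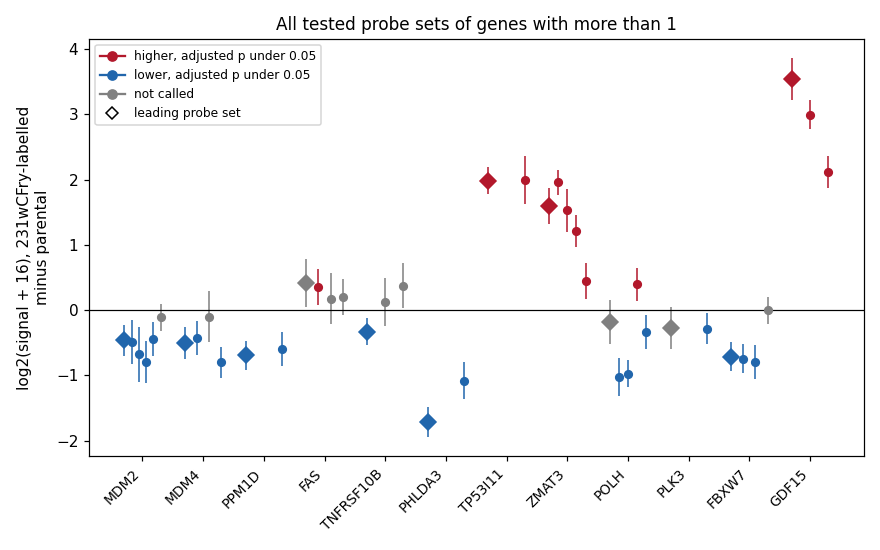
Change on log2(signal + 16), 231wCFry minus parental, of every tested probe set of the 12 member genes with more than 1, with 95% confidence intervals from limma (3 arrays a group). Diamonds mark the leading probe set. All 5 ZMAT3 and all 3 GDF15 probe sets lie above 0, while those of POLH lie on both sides.

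Of 4 tested cell cycle genes, 3 fell and 1 did not pass. PLK2, a kinase of centriole duplication and stress checkpoints, read 376, 361 and 401 in 231wCFry samples, against 1082, 987 and 994 in parental samples. The 231wCFry mean was 0.37 times the parental mean, with little spread in either group (log2 change -1.39, SE 0.09, limma adjusted p = 1.10e-06). SERTAD1, a regulator of CDK4 and E2F activity, fell to 148 ± 29.2 in 231wCFry samples, against 304 ± 40.4 in parental samples (SD, n = 3), a log2 change of -0.97 (limma adjusted p = 3.48e-04). FBXW7, the substrate receptor of a ubiquitin ligase for cyclin E and MYC, fell to 161 ± 7.54 in 231wCFry samples, against 275 ± 26.6 in parental samples, a log2 change of -0.72 (limma adjusted p = 1.81e-04). A further 2 of its probe sets fell and 1 did not pass. PLK3, another kinase of the polo family, was dim, at 9.57 ± 3.91 in 231wCFry samples and 14.8 ± 4.47 in parental samples. It did not pass (limma adjusted p = 0.132), although its leading probe set did so without the second parental array (0.0410). The second tested probe set for PLK3 fell, but it passed the filter on low signals through the parental samples alone. Its inclusion depended on the difference, so that fall adds no support.

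The metabolic targets split. TIGAR, an enzyme that lowers fructose-2,6-bisphosphate and so slows glycolysis, read 853, 857 and 852 in 231wCFry samples, against 332, 280.2 and 299 in parental samples. The 231wCFry arrays were nearly equal and their mean was 2.81 times the parental mean (log2 change 1.45, SE 0.09, limma adjusted p = 1.02e-06). SESN1, a sestrin that restrains mTORC1 signalling, read 27.5, 37.1 and 27.4 in 231wCFry samples, against 37.2, 42.4 and 41.9 in parental samples. Its highest 231wCFry array all but reached its lowest parental array, and it passed narrowly with a log2 change of -0.28 (SE 0.11, limma adjusted p = 0.0450). Its call was lost in 5 of the 6 fits that left out an array, all but the one without the second 231wCFry array, with adjusted p of 0.051 to 0.145, with a pseudocount of 1 or 64 (0.056 and 0.067), without the filter (0.060) and with an intensity trend (0.079).

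Of the secreted factors, GDF15 held the greatest change of any member on the log2(signal + 16) scale. With a pseudocount of 1 the change of PHLDA3, not above background in 231wCFry samples, was larger in size (-4.43, against 4.26 for GDF15). GDF15, a stress-induced cytokine of the TGF-beta superfamily, read 396, 426 and 423 in 231wCFry samples, against 18.1, 30.9 and 15.7 in parental samples. The lowest 231wCFry array exceeded the highest parental array many times over, with a mean 19.3 times the parental mean (log2 change 3.54, SE 0.14, limma adjusted p = 3.87e-08). Both other GDF15 probe sets rose, by 2.99 and by 2.12 on the log2 scale. On the probe set with the smaller change the parental samples were not above background, and 231wCFry samples, through which alone it passed the filter, were at least 17.7-fold higher. KITLG, the ligand of the receptor KIT, fell to 143 ± 10.8 in 231wCFry samples, against 194 ± 28.1 in parental samples (SD, n = 3), a log2 change of -0.39 (limma adjusted p = 0.0153). That call was lost without the third 231wCFry array (0.0553) and without the second parental array (0.0542).

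Read by probe set, 57 of the 77 passed the filter. Among these 16 rose, 26 fell and 15 did not pass, against 62.4% called, 30.2% rising and 32.2% falling, over all 32768 tested probe sets. The other 20 read at most 12.1 on any array. Probe sets of the same gene are not independent, and MDM2 alone gave 5 of the falls and ZMAT3 5 of the rises. Among the 6 members that hold the response element match and were measured, GDF15 and AEN rose, MDM2 and SESN1 fell, and DDB2 and FAS did not pass. The members with a match therefore did not share a direction.

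Other genes of the pathway were also mixed. Of 34 further p53 targets, 31 were tested, and 7 rose, 12 fell and 12 did not pass, with a median log2 change of -0.21. The shares were 22.6% rising and 38.7% falling, against 33.9% and 32.9% over all genes. The 4 with the smallest p were SFN, TNFRSF10D, FUCA1 and SESN2. SFN, a 14-3-3 protein of epithelia, averaged 54.6 ± 4.1 in 231wCFry samples and 1467 ± 56.9 in parental samples (SD, n = 3), and TNFRSF10D, a decoy receptor for TRAIL, 4.13 ± 0.71 in 231wCFry samples and 233 ± 26.0 in parental samples. FUCA1, a lysosomal fucosidase, averaged 132 ± 6.0 in 231wCFry samples and 563 ± 27.3 in parental samples. SESN2, a paralog of SESN1, rose, at 263 ± 21.8 in 231wCFry samples and 38.1 ± 8.3 in parental samples. The fall of SESN1 was small and its call was not stable, as given above. The adjusted p of these 4 genes was at most 2.72e-07 (limma), but TNFRSF10D passed the filter through the parental samples alone and so had to differ. CDKN1A, the cell cycle inhibitor p21 and named after its values were seen, fell to 277 ± 44.1 in 231wCFry samples, against 494 ± 67.6 in parental samples (log2 change -0.81, limma adjusted p = 6.26e-04).

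Of 25 regulators of p53, 23 were tested, and 8 rose, 6 fell and 9 did not pass, with a median log2 change of 0.16. The shares were 34.8% rising and 26.1% falling, against 33.9% and 32.9% over all genes. CDKN2A, whose locus also encodes the MDM2 inhibitor ARF, averaged 874 ± 56.3 in 231wCFry samples and was not above background in parental samples, at least 255-fold higher (limma adjusted p = 2.07e-10). It passed the filter through the 231wCFry samples alone, so it had to differ. Which of its transcripts the probe set reads was not determined. ATR, a kinase of the replication stress response, averaged 795 ± 48.3 in 231wCFry samples and 352 ± 23.1 in parental samples (SD, n = 3). EP300, an acetyltransferase and p53 cofactor, averaged 721 ± 22.9 in 231wCFry samples and 299 ± 38.2 in parental samples. TP53BP2, which directs p53 to genes of cell death, averaged 169 ± 8.76 in 231wCFry samples and 259.5 ± 20.7 in parental samples. The adjusted p of the last 3 was at most 5.83e-04. Of the p53 family only TP73 had a value, and it rose to 23.4 ± 3.9 in 231wCFry samples, against 9.93 ± 3.7 in parental samples (log2 change 0.61, limma adjusted p = 0.00197).

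**Figure D4:**
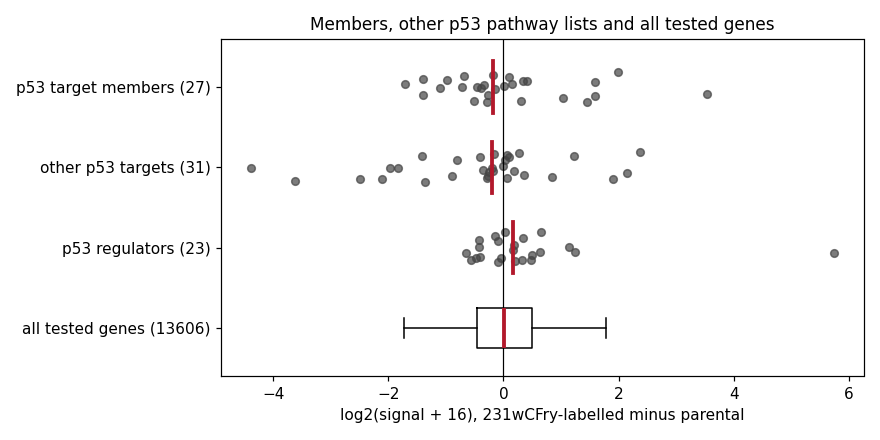
Change on log2(signal + 16), 231wCFry minus parental, of the leading probe set of each tested gene (points, spread vertically only to separate them) in the 27 members, 31 other p53 targets and 23 regulators, with the median as a red line. The box gives all 13606 tested genes (quartiles, whiskers at the 5th and 95th percentiles, -1.73 and 1.79). Each list spreads to both sides of 0, with medians of -0.18, -0.21 and 0.16.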

How the data were processed

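Signal intensity values on a linear scale were deposited for 6 arrays of 54675 probe sets, made with MAS5, per the submitters' processing notes, with version and scaling target not given in the sources used here. Per the labels' protocols, 40 ng of RNA from cultures at 70% confluence was amplified for each array. The intensities were transformed to log2(signal + 16) without further normalization. The 62 control probe sets were left out. Genes were named from GEO's platform annotation, where 41091 probe sets named 1 gene. Probe sets at or above the 40th percentile of the mean log2 value (a signal of 5.62) were tested, 32768 in all, by limma 3.58.1 (lmFit, eBayes; R 4.3.3) without covariates, and adjusted over all of them by Benjamini-Hochberg. A probe set was not above background on an array at or below the highest of 27 unspiked bacterial control probe sets. Bounds written as at least N-fold compare the mean log2 signal of the brighter group with that level, or with the dim probe set's own signal where higher.

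The members, the lists of other pathway genes and the cell type markers were chosen with earlier results of these data known. Arrays are given for each called member with a log2 change of at least 1, for MDM2 and MDM4 and for members called in both directions, and for other members where the spread bears on the call. Of each other list the 4 genes with the smallest p are named. The code of the fit was checked on simulated data with independent errors and far fewer changed probe sets than were called here. That check does not test the calls in these data. No pair of replicates had equal values in more than 2.15% of probe sets. Alternatives were the pseudocount, the filter, quantile normalization, a replicate block, an intensity trend, the type of probe set and each array left out. Plots were made in Python 3.11.15 (matplotlib 3.10.9).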

Additional observations from a re-analysis of the deposited data

How the results depend on the processing

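The member counts, 7 rising and 12 falling, stayed within 1.5 times under every alternative but 1, and leaving out each array gave 6 to 9 rising and 10 to 12 falling. The exception was leaving out probe sets that may match several transcripts (by their name suffix), which tests fewer probe sets: 4 members then rose (member probe sets 7 rising, 17 falling), 5 regulators rose, 4 other p53 targets rose and 7 fell, and over all probe sets 6066 rose and 6462 fell. TNFRSF10B turned to 0.13 as the median over its tested probe sets. Over single members, 373 values kept their call, and their direction where called (medians over probe sets: moved by under 1 SD), 12 lost a call and 8 gained one, in SESN1, CCNG1, KITLG, FAS, XPC and PLK3 only, and the medians over probe sets moved for GDF15 (2.99) and PHLDA3 (-1.40). Same-numbered arrays correlated at 0.07, 0.07 and 0.19 in their deviations, so the numbers were not taken as pairs. The replicate block gave 9 rising and 12 falling members, with FAS and XPC added to the rising ones. Signal near background limits EDA2R and SPATA18 in both groups, PLK3, and PHLDA3 and CYFIP2 in the dimmer group.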
